A study of Sus scrofa with 18 samples.

Results

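The genes described here are the oxytocin receptor gene and 6 prostanoid receptor genes of the pig, OXTR, PTGFR, PTGER2, PTGER3, PTGER4, PTGIR and TBXA2R, 7 of the 28210 RefSeq genes placed on the named chromosomes of the Sscrofa11.1 assembly. They were chosen by name, and every peak from 3 kb before to 3 kb after each gene was taken from the deposited lists. The study profiled H3K4me3 and H3K27ac in the muscle wall of the uterus (myometrium) of Yorkshire gilts, on the mesometrial side, the side where the uterus is suspended. The groups were circular muscle on day 15 of pregnancy (GD15M_CM), longitudinal muscle on day 15 of pregnancy (GD15M_LM) and circular muscle on day 15 of the oestrous cycle (CD15M_CM). Each group had 2 gilts, with 1 library per mark and 1 with IgG as the control for each gilt of a group, 18 libraries in all. The labels do not say whether the 2 layers of pregnant muscle came from the same gilts. The paper treated the layers as paired in its RNA-seq comparison. The libraries were made by CUT&Tag, in which an antibody guides a transposase to the marked nucleosomes, although the labels call them ChIP-seq. Longitudinal muscle of cyclic gilts was not profiled for these marks, so layer can be compared only within pregnancy and pregnancy only within the circular layer.

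The receptors sit on the surface of uterine smooth muscle cells and turn hormone signals into contraction or relaxation. OXTR, PTGFR (the PGF2α receptor FP) and TBXA2R (the thromboxane receptor TP) couple mainly to Gq, which raises calcium and contracts the muscle. PTGER2 and PTGER4 (the PGE2 receptors EP2 and EP4) and PTGIR (the prostacyclin receptor IP) couple mainly to Gs, which raises cAMP and relaxes it, while PTGER3 (the PGE2 receptor EP3) couples mainly to Gi and lowers cAMP. The histone mark H3K4me3 is found at promoters that are active or poised, and H3K27ac at promoters and enhancers in use.

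The authors pooled both gilts of a group before calling peaks, so there is 1 list per mark and group and no value per gilt. These pooled lists give no spread between animals, so the differences between them are given as values without a test. Libraries of single gilts were not analysed here. Each peak has a fold enrichment, the ratio of the mark over IgG, and the strength of a gene's mark is given as the percentile of its strongest peak, that is, the percentage of peaks in the same list with a fold enrichment at or below it. A gene without a peak in its window has 0. The H3K4me3 lists held 33599, 31910 and 36331 peaks in GD15M_CM, GD15M_LM and CD15M_CM, and the H3K27ac lists 79877, 57010 and 82037. Fold enrichments of different lists are not on a common scale, which is why percentiles are compared.

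The 9 smooth muscle markers all had peaks of both marks in all 3 groups, with median percentiles for H3K4me3 of 79.1 in GD15M_CM, 89.4 in GD15M_LM and 86.1 in CD15M_CM, and for H3K27ac of 87.3, 94.3 and 94.1. Markers of uterine epithelium were also marked in both circular muscle groups, and in the median less so in GD15M_LM. The medians over 7 genes were 79.4, 59.0 and 78.5 for H3K4me3 and 76.1, 20.1 and 72.3 for H3K27ac. For H3K27ac, KRT18 and KRT19 were at 0 in GD15M_LM, but CLDN4 ranked highest there, at 92.3 against 85.0 in GD15M_CM and 75.7 in CD15M_CM. CDH1 had 76.3 in GD15M_CM, and only 7.74 in GD15M_LM and 4.83 in CD15M_CM. The 5 T cell markers that could be placed had median H3K4me3 percentiles of 68.0, 61.7 and 52.6, and 3, 1 and 1 of them had an H3K27ac peak, with CD3D and CD3E at 0 in every group. In whole tissue, a weaker mark in every cell and fewer cells that carry it cannot be told apart. The values of these markers move with layer or with pregnancy, as do several results below, and their part in those results was not tested.

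All 7 receptor genes had an H3K4me3 peak in each group. Among all RefSeq genes, 60% had one in GD15M_CM, 61% in GD15M_LM and 61.7% in CD15M_CM, and among protein-coding genes 73.7%, 74.6% and 75.4%. H3K27ac was called at 6 of 7 receptor genes in GD15M_CM, with OXTR the exception, and at all 7 in GD15M_LM and CD15M_CM, against 62.9%, 61.3% and 64.9% of all genes and 73.9%, 73.1% and 75.8% of protein-coding genes. As a group, the receptor genes were marked less strongly than the typical gene with a peak. Their median H3K4me3 percentile was 68.0 in GD15M_CM, 73.3 in GD15M_LM and 66.9 in CD15M_CM, while the median over all genes with a peak was 80.9, 79.5 and 81.8. For H3K27ac the median over all 7 was 62.2, 78.9 and 73.2, while that of all genes with a peak was 86.9, 83.2 and 85.2.

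**Figure D1:**
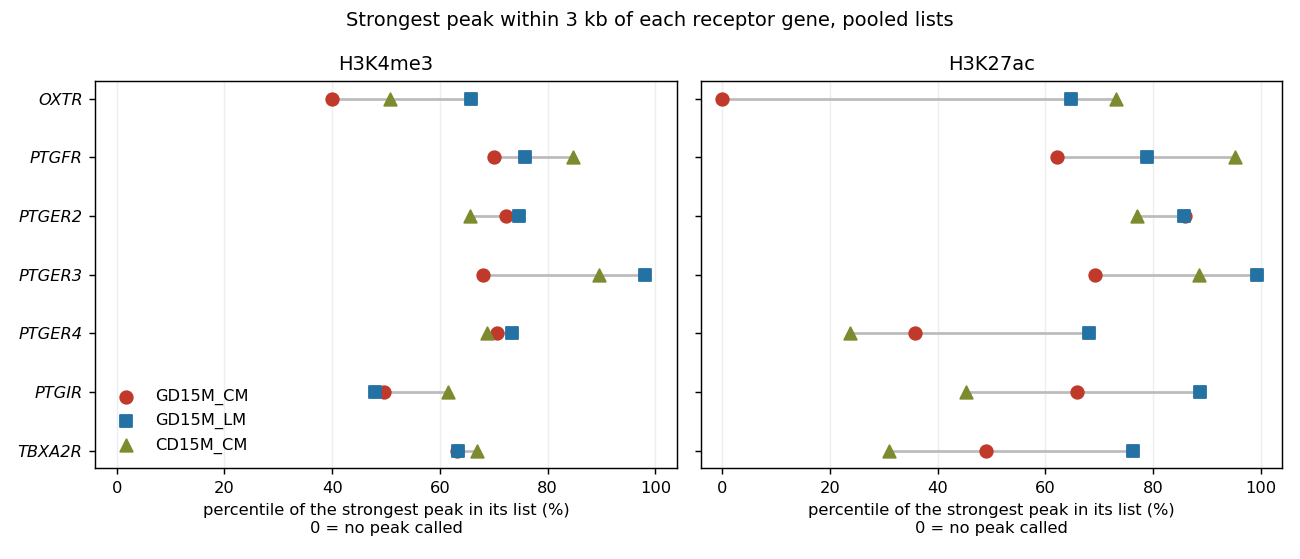
Percentile of the strongest H3K4me3 peak (left) and H3K27ac peak (right) in the window of each receptor gene, on a scale of 0 to 100% of the peaks in the same list, with 1 point per pooled list and no error bars. For H3K27ac the GD15M_LM points lie between 64.7 and 99.2, while the GD15M_CM points reach from 0 for OXTR to 85.8 for PTGER2.

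Strand was not used here, so the promoter of each gene is described as the gene end that carried H3K4me3. That was the high-coordinate end for OXTR, PTGFR and PTGIR and the low-coordinate end for PTGER2, PTGER3, PTGER4 and TBXA2R, and it was the same end in all 3 groups for each gene. The strongest H3K4me3 peak covered that end in every list for PTGFR, PTGER2, PTGER3, PTGER4 and PTGIR. For TBXA2R it covered the end in both circular muscle lists and began 41 bp inside it in GD15M_LM. For OXTR it lay 648 bp to 1788 bp inside the gene.

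OXTR, the receptor through which oxytocin drives uterine contraction, lies on chromosome 13 from 65134055 to 65155543. Its strongest H3K4me3 peak ranked at the 40.1 percentile in GD15M_CM, the 65.8 percentile in GD15M_LM and the 50.7 percentile in CD15M_CM. The peak of GD15M_LM was also the longest, 3793 bp with a fold enrichment of 12.3, against a single peak of 243 bp and 4.13 in GD15M_CM and a strongest peak of 461 bp and 4.71 in CD15M_CM. Both circular muscle lists thus held shorter and weaker H3K4me3 peaks at a position where the longitudinal muscle list held 1 long peak. With its neighbour, the peak of CD15M_CM covered 1942 bp in all.

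No H3K27ac peak was called in the OXTR window of GD15M_CM, and the nearest one in that list lay 51211 bp from the gene. GD15M_LM and CD15M_CM each had a pair of H3K27ac peaks there, both on the H3K4me3 region. The stronger of each pair was at chr13:65154481-65155008 in GD15M_LM (percentile 64.7, fold enrichment 4.31) and at chr13:65154325-65154890 in CD15M_CM (percentile 73.2, fold enrichment 4.22). The second peak was near the first in strength in GD15M_LM, with a percentile of 61.5, and much weaker in CD15M_CM, with 24.8. OXTR was therefore the member with the largest H3K27ac difference in both comparisons, 73.2 points between CD15M_CM and GD15M_CM and 64.7 points between GD15M_LM and GD15M_CM. Of all genes with an H3K27ac peak in either list, 1.58% differed at least as far towards CD15M_CM and 1.99% at least as far towards GD15M_LM. None of the OXTR peaks of H3K27ac reached a −log10 p of 10, the highest being 8.72, and all of them are lost with a strict threshold on peaks.

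PTGFR, the receptor for the luteolytic and contractile prostaglandin PGF2α, lies on chromosome 6 from 134727334 to 134777067. Its H3K4me3 percentile was 70.1 in GD15M_CM, 75.8 in GD15M_LM and 84.7 in CD15M_CM, with fold enrichments of 11.2, 17.6 and 21.1. The order was thus not that of OXTR, since CD15M_CM ranked highest. The longest peak was that of GD15M_LM, with 5408 bp against 2280 bp in GD15M_CM and 2560 bp in CD15M_CM, in lists whose median H3K4me3 peaks measured 1007, 760 and 800 bp. H3K27ac on this promoter followed the order of the H3K4me3 percentiles: 55.6 in GD15M_CM, 78.9 in GD15M_LM and 95.1 in CD15M_CM.

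Farther inside PTGFR, the H3K27ac peaks of the groups did not coincide. GD15M_CM had 2 peaks about 25 kb from the low-coordinate end, at chr6:134751881-134752216 and chr6:134753207-134753570, with percentiles of 62.2 and 61.1. CD15M_CM had 4 peaks between 37.3 and 41.0 kb, with percentiles of 17.01 to 72.3, and none in the first place. GD15M_LM had no H3K27ac peak inside the gene away from the promoter. All these inner peaks were short, between 200 and 364 bp. GD15M_LM alone had a peak beyond the gene, at chr6:134779530-134779890, which also reaches into the neighbouring lncRNA LOC106510698.

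TBXA2R, the thromboxane receptor, lies on chromosome 2 from 75068413 to 75081305 and showed almost the same H3K4me3 in the 3 groups. Its percentile was 63.2 in GD15M_CM, 63.3 in GD15M_LM and 66.9 in CD15M_CM, from peaks of 2649, 2666 and 3048 bp. H3K27ac on the same promoter was less even, at the 49.0 percentile in GD15M_CM, 76.3 in GD15M_LM and 30.9 in CD15M_CM. A second H3K27ac site, 3.58 to 4.35 kb inside the gene, was marked in all 3 groups with percentiles of 34.8, 12.4 and 13.5. A weak H3K27ac peak of GD15M_CM alone, at chr2:75065794-75066176 with a percentile of 7.17, overlaps the end of the neighbouring gene CACTIN.

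PTGER3, the only mainly Gi-coupled receptor of the 7, lies on chromosome 6 from 141958955 to 142160437. It had the highest percentile of any receptor gene for both marks in GD15M_LM. Its H3K4me3 percentile was 68.0 in GD15M_CM, 98.1 in GD15M_LM and 89.6 in CD15M_CM, and the fold enrichment was 10.2, 35.7 and 24.5. The peaks measured 3461, 5597 and 4082 bp. On the same promoter, H3K27ac ranked at 53.8 in GD15M_CM, 99.2 in GD15M_LM and 85.1 in CD15M_CM. GD15M_CM was thus lowest for both marks, and in that list the promoter H3K27ac was called as 2 short peaks of 875 and 800 bp, against single peaks of 3148 and 3189 bp in the others.

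PTGER3 also had the most H3K27ac sites away from a promoter. It is the longest of the receptor genes, with 201483 bp against 49734 bp for PTGFR, the next longest. The number of sites was not corrected for gene length, so this ranking may reflect length alone. Between 7.54 and 34.0 kb inside PTGER3 there were 8 regions with H3K27ac and without H3K4me3, and GD15M_CM had a peak in none of them. Of these 8, 3 were marked in both GD15M_LM and CD15M_CM, 2 in GD15M_LM alone and 3 in CD15M_CM alone. The strongest was the region at chr6:141974922-141975748, with a percentile of 88.5 in CD15M_CM and 66.6 in GD15M_LM. One inner region was marked in all 3 groups, at chr6:142126483-142127215, with percentiles of 69.2 in GD15M_CM, 52.3 in GD15M_LM and 82.2 in CD15M_CM. This region and 2 weak ones beyond it also lie inside the lncRNA model LOC106507649, so they cannot be assigned to PTGER3 alone.

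**Figure D2:**
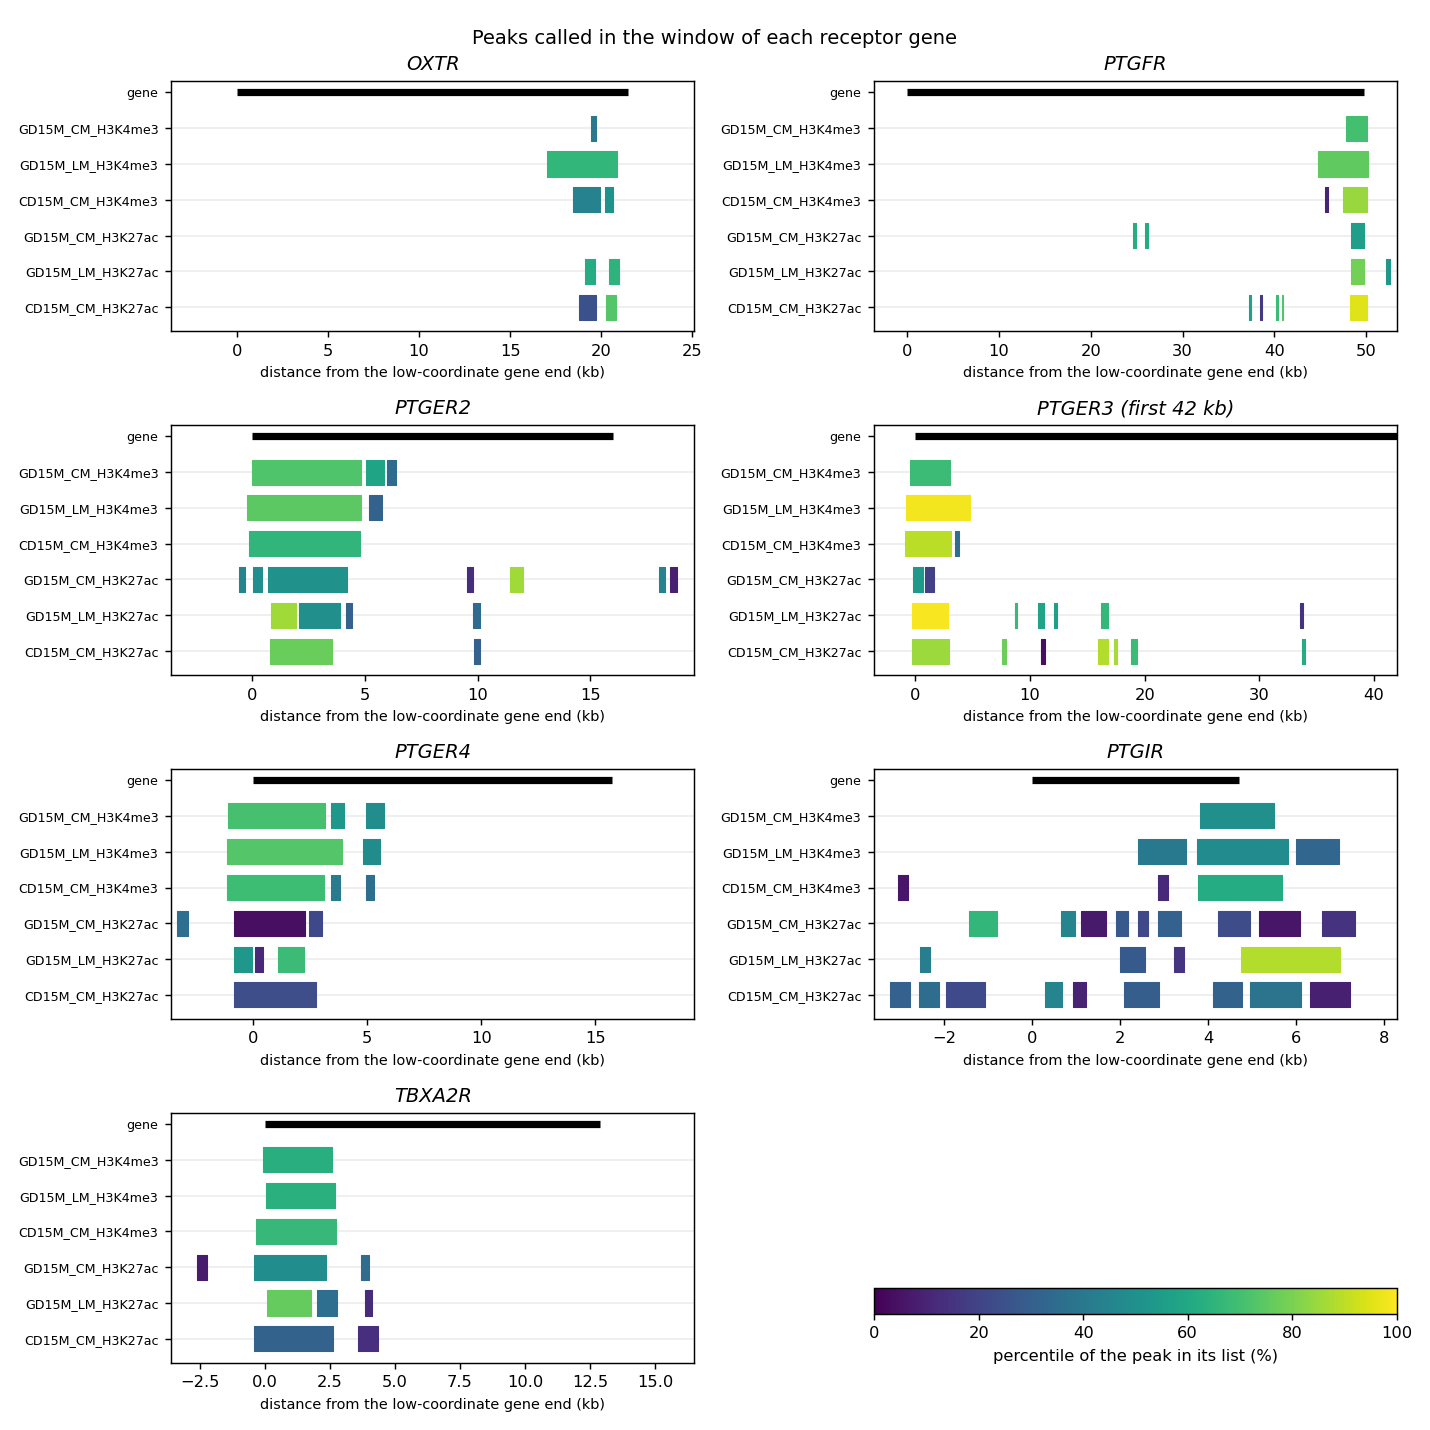
Position of every H3K4me3 and H3K27ac peak in the window of each receptor gene, with distance in kb from the low-coordinate end of the gene on the x axis, 1 line per pooled list, and colour for the percentile of the peak in its list. The black bar is the gene. Only the first 42 kb of PTGER3 are drawn, where GD15M_CM has no H3K27ac peak beyond the promoter while GD15M_LM and CD15M_CM have several.

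PTGER2, a receptor through which PGE2 relaxes the myometrium, lies on chromosome 1 from 181993961 to 182009959. Its H3K4me3 was broad and similar in the 3 groups, with peaks of 4843, 5067 and 4954 bp and percentiles of 72.4 in GD15M_CM, 74.7 in GD15M_LM and 65.6 in CD15M_CM. Its strongest H3K27ac peak anywhere in the window ranked at 85.8 in GD15M_CM, 85.8 in GD15M_LM and 77.0 in CD15M_CM. These values are not of the same site. In GD15M_CM the peak lies at chr1:182005408-182005953, well inside the gene, whereas in GD15M_LM and CD15M_CM it lies on the promoter. On the promoter itself, H3K27ac ranked at 50.3, 85.8 and 77.0. The RefSeq model of PTGDR, the gene of the prostaglandin D2 receptor DP1, runs from 181953506 to 182006375 and overlaps PTGER2, so the promoter peak and the inner peak lie in both models and cannot be assigned to PTGER2 alone.

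PTGER4, the second Gs-coupled PGE2 receptor, lies on chromosome 16 from 25670832 to 25686556. Its H3K4me3 was as even as that of PTGER2, with percentiles of 70.6 in GD15M_CM, 73.3 in GD15M_LM and 68.7 in CD15M_CM and peaks of 4241, 5068 and 4263 bp. H3K27ac differed more. On the promoter it ranked at 21.8 in GD15M_CM and 23.7 in CD15M_CM, and at 68.0 in GD15M_LM. By fold enrichment, the circular muscle lists thus held weak peaks over a long stretch, and the longitudinal list a shorter and stronger one. The longest peak measured 3136 bp with a fold enrichment of 2.34 in GD15M_CM and 3614 bp with 2.90 in CD15M_CM, and the strongest peak of GD15M_LM 1178 bp with 4.47. Over the whole window the GD15M_CM value was 35.9, from a peak at chr16:25667493-25667965 that only partly lies within 3 kb of the gene. Ranked by −log10 p, H3K27ac in the window was 28.7 points higher in CD15M_CM and 28.6 higher in GD15M_LM than in GD15M_CM. On that ranking the 2 circular muscle lists were not alike.

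PTGIR, the prostacyclin receptor, is the shortest of the genes and lies on chromosome 6 from 52522639 to 52527338. It ranked low for H3K4me3, at 49.7 in GD15M_CM, 47.9 in GD15M_LM and 61.5 in CD15M_CM. H3K27ac was spread over many weak peaks in circular muscle, 9 in GD15M_CM and 9 in CD15M_CM, and over 4 in GD15M_LM. On the promoter GD15M_LM had 1 peak of 2265 bp with a percentile of 88.6, where the strongest peak had 23.0 in GD15M_CM and 38.1 in CD15M_CM. The strongest GD15M_CM peak of the window lay outside the gene, at chr6:52521190-52521839, with a percentile of 65.9.

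The comparison of GD15M_CM with CD15M_CM asks what differs in circular muscle between pregnancy and the cycle. OXTR, PTGFR and PTGER3 ranked higher in the cyclic muscle for both marks. The share of all genes that did so for both marks was not counted. H3K4me3 ranked higher in CD15M_CM at 5 of 7 genes, where 59.3% of 17645 genes did. A difference of at least 20 points was found only for PTGER3 in this comparison, with 21.6 points, and such a difference towards CD15M_CM was found at 8.98% of all genes. The next largest were PTGFR with 14.6, PTGIR with 11.8 and OXTR with 10.7 points, while 2 of 7, PTGER2 and PTGER4, ranked higher in GD15M_CM, by 6.77 and 1.86 points, where 40.7% of all genes did. The counts were thus near those of all genes.

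For H3K27ac, 3 of 7 genes ranked higher in CD15M_CM, where 50.8% of 18998 genes did, and 4 in GD15M_CM, where 49.2% did. OXTR and PTGFR passed 20 points towards CD15M_CM, with 73.2 and 32.9 points, and 17.6% of all genes did so. PTGER3 lay just under with 19.3 points. In the other direction PTGIR passed with 20.6 points, where 15.5% of all genes did, and TBXA2R, PTGER4 and PTGER2 followed with 18.2, 12.1 and 8.87 points. The direction of PTGIR depended on the site: on the promoter alone it was 15.1 points higher in CD15M_CM, and with a window of 10 kb 20.3 points higher. With peaks ranked by their −log10 p, 5 of 7 genes were higher in CD15M_CM, among them PTGER4 by 28.7 points. The share of all genes on that ranking was not counted, so this count has no background. PTGER2 was 26.6 points higher in CD15M_CM when peaks were taken within 3 kb of either gene end or peaks near another gene were left out. Ranked by −log10 p, it was higher there by only 6.73 points. The T cell markers ranked higher in GD15M_CM at 5 of 5 genes for H3K4me3, where 40.7% of all genes did, and at 3 for H3K27ac, where 49.2% did. CD3D and CD3G lie next to each other with the same H3K4me3 values in every list, so these 5 genes are not all separate. Smooth muscle markers ranked higher in CD15M_CM at 8 of 9 genes for H3K27ac and 6 of 9 for H3K4me3, where 50.8% and 59.3% of all genes did. The part of either set of markers in these differences was not tested.

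The comparison of GD15M_CM with GD15M_LM asks what differs between the layers in pregnancy, and it shares the GD15M_CM lists with the comparison above. Nearly all receptor genes ranked higher in longitudinal muscle by fold enrichment, but most of the H3K4me3 differences were small. H3K4me3 did so at 6 of 7 genes, where 48.3% of 17636 genes did. PTGER3 and OXTR passed 20 points, with 30.1 and 25.7 points, as did 8.42% of all genes, and 4.11% and 5.35% of all genes differed at least as far in that direction. The other differences were small, from 0.11 for TBXA2R to 5.63 points for PTGFR, and PTGIR ranked 1.81 points higher in GD15M_CM, where 51.7% of all genes ranked higher. Some of these small differences changed direction when ranked by −log10 p. GD15M_LM minus GD15M_CM was then −1.36 points for PTGER2, −0.94 for PTGER4 and 0.62 for PTGIR.

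H3K27ac ranked higher in GD15M_LM at 6 of 7 genes too, where 42.8% of 18567 genes did. Of the 7, 5 passed 20 points, against 14.2% of all genes. These were OXTR with 64.7 points, PTGER4 with 32.2, PTGER3 with 30.0, TBXA2R with 27.3 and PTGIR with 22.8. PTGFR followed with 16.7 points, and PTGER2 ranked 0.066 points higher in GD15M_CM, where 57.2% of all genes ranked higher. Ranked by −log10 p, TBXA2R differed by only 3.18 points and PTGIR by 17.6, and with a window of 10 kb TBXA2R differed by 16.9. A strict threshold (fold enrichment from 5 up and −log10 p from 10 up) left no H3K27ac peak in either list at OXTR, PTGER4 and TBXA2R. The median H3K27ac percentile of the 7 genes was 62.2 in GD15M_CM and 78.9 in GD15M_LM, while that of all genes with a peak in either list was 85.9 and 81.4, so that the 7 genes and all genes differed in opposite directions. Epithelial markers ranked higher in GD15M_CM at 7 of 7 genes for H3K4me3 and 6 of 7 for H3K27ac, and 8 of 9 smooth muscle markers ranked higher in GD15M_LM for H3K4me3 and 5 of 9 for H3K27ac. Their part in these differences was not tested.

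**Figure D3:**
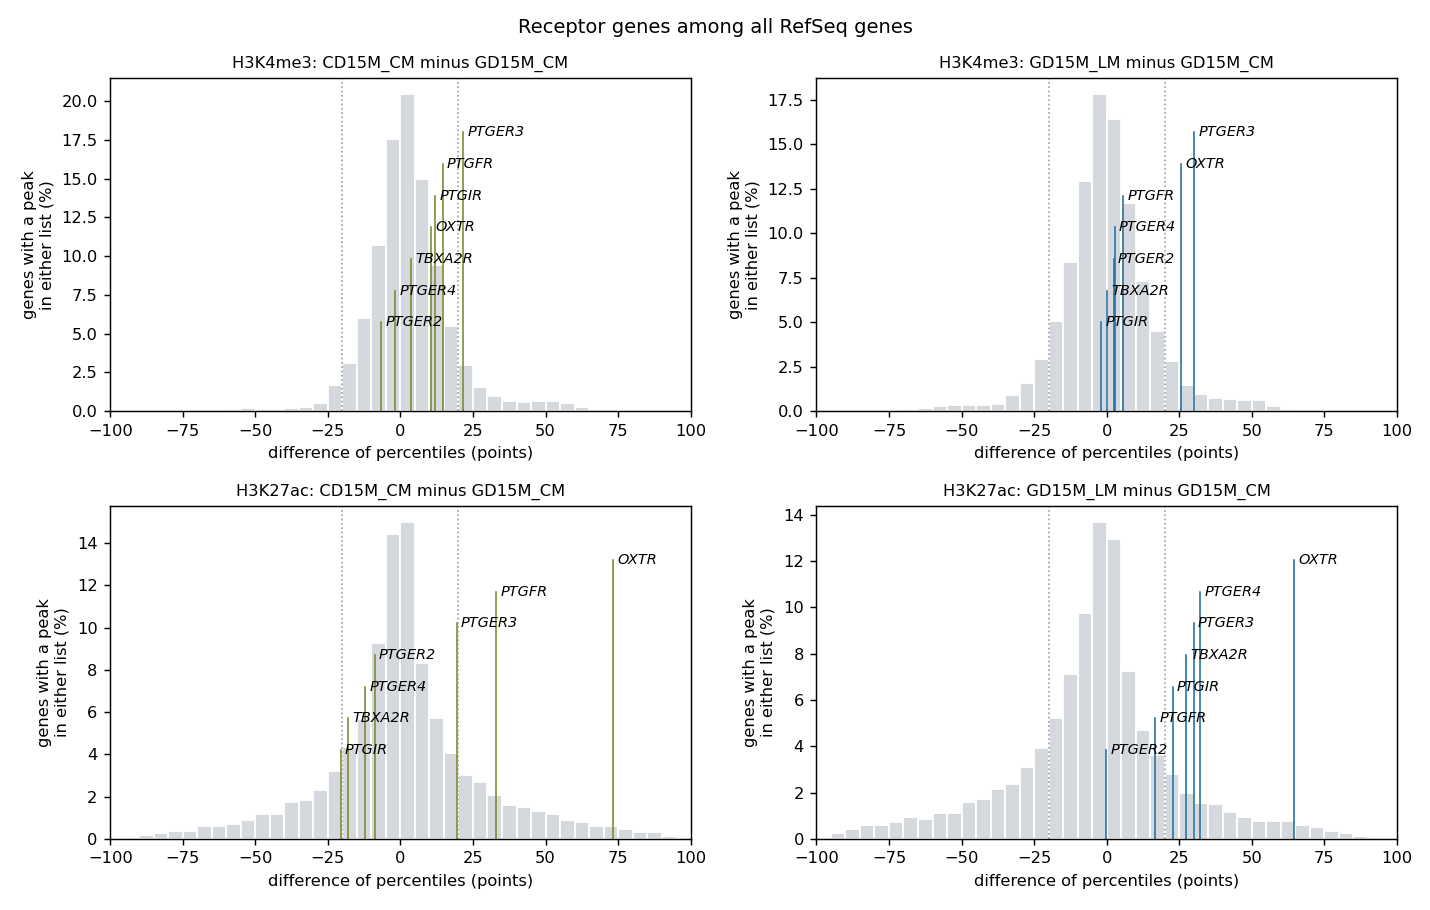
Difference of percentiles between groups, in points, for the 7 receptor genes (named lines) and for all genes with a peak in either list (grey bars, % of genes per bin), with dotted lines at 20 points in either direction. Towards GD15M_LM, 5 of 7 receptor genes passed 20 points for H3K27ac, and OXTR lies farthest out in both H3K27ac panels.

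Because the strongest H3K27ac peak of some genes was not at the promoter, H3K27ac was also taken only where it overlapped the strongest H3K4me3 peak of the gene, a choice made after seeing the data. On that measure GD15M_CM was lowest at 6 of 7 genes, and TBXA2R was lowest in CD15M_CM. The share of all genes lowest in GD15M_CM was not counted, so this count has no background. Shares of all genes are given below for each pair of groups. Ranked by fold enrichment, all 7 genes were at least 20 points higher in GD15M_LM than in GD15M_CM. The differences ran from 23.3 points for PTGFR to 65.6 for PTGIR. Among 15814 genes with H3K4me3 in all 3 groups and H3K27ac on it in either list, 43.9% ranked higher in GD15M_LM and 14.9% did so by at least 20 points. In CD15M_CM 6 of 7 were higher than in GD15M_CM, where 47.8% of 15885 genes were. Of these, OXTR, PTGFR, PTGER3 and PTGER2 passed 20 points, with 73.2, 39.6, 31.3 and 26.6 points, as did 16% of all genes. PTGER4 differed by only 1.92 points. TBXA2R was 18.2 points higher in GD15M_CM, where 52.2% of all genes ranked higher. These values rank peaks by fold enrichment. By −log10 p, the strongest H3K27ac peak lay on the promoter in both pregnant lists at PTGFR, PTGER2, PTGER3, PTGER4 and TBXA2R. Their differences towards GD15M_LM were then 15.2, 3.71, 33.2, 28.6 and 3.18 points, so not all 7 genes passed 20 points. PTGER2 was then 6.73 points higher in CD15M_CM than in GD15M_CM, also from promoter peaks.

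**Figure D4:**
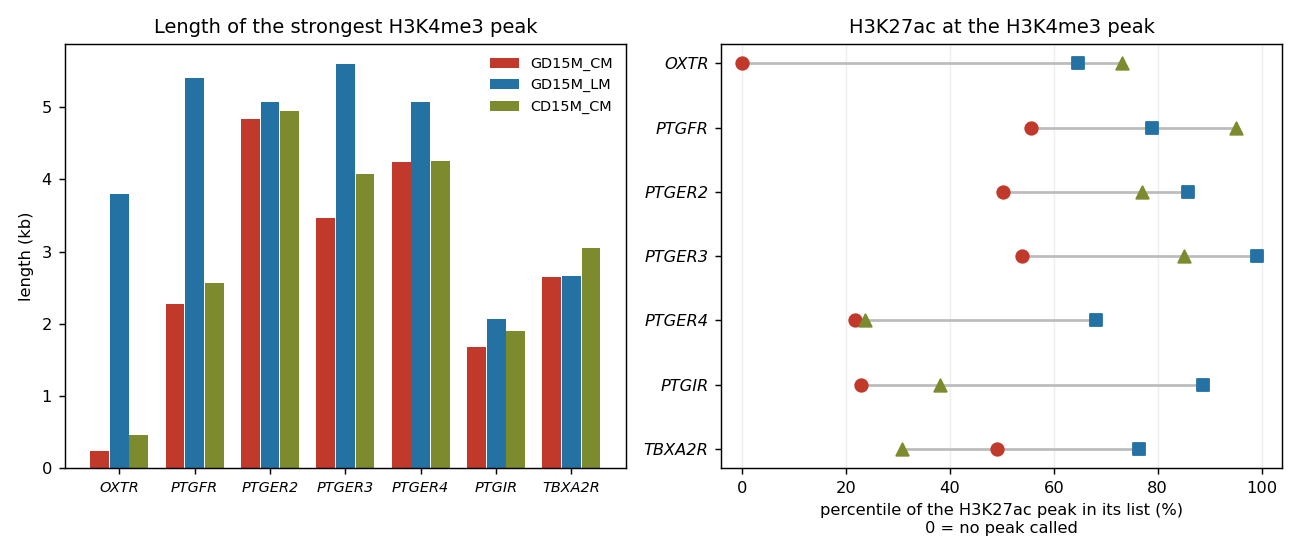
Length in kb of the strongest H3K4me3 peak (left, bars from 0) and percentile of the H3K27ac peak that overlaps it (right) for each receptor gene, with 1 value per pooled list and no error bars. The GD15M_LM bar is the longest at 6 of 7 genes, TBXA2R being the exception, where it was at 37.8% of the 16367 genes with H3K4me3 in all 3 lists, and its H3K27ac point lies to the right of the GD15M_CM point at all 7 genes.

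The marks also differed in how they were placed. When overlapping peaks of the 6 lists were joined, the 7 windows held 41 regions. Only 9 of these carried both marks, 3 carried H3K4me3 alone and 29 H3K27ac alone, of which 21 lay inside a gene. Each group had 10 regions with H3K4me3, though not the same ones: PTGER2 had 3 in GD15M_CM, 2 in GD15M_LM and 1 in CD15M_CM, and PTGIR had 1, 2 and 3. The H3K27ac regions numbered 20 in GD15M_CM, 19 in GD15M_LM and 26 in CD15M_CM. Of the 29 regions with H3K27ac alone, 3 were marked in all 3 groups, 8 in GD15M_CM alone, 4 in GD15M_LM alone, 8 in CD15M_CM alone, 4 in both GD15M_LM and CD15M_CM and 2, both at PTGIR, in the circular muscle of both kinds of gilt. Of the 8 regions of GD15M_CM alone, 4 lay in the window of PTGER2 and none at PTGER3. At OXTR there was no region of this kind in any group. Regions were not counted in this way for all genes, so these counts have no background. The H3K27ac lists also differed in size, the smallest being that of GD15M_LM with 57010 peaks, against 79877 for GD15M_CM and 82037 for CD15M_CM.

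In the median, the other receptors of these families were marked more weakly than the 7. PTGDR, which shares peaks with PTGER2, was an exception. In GD15M_CM, GD15M_LM and CD15M_CM it had H3K4me3 percentiles of 72.4, 74.7 and 72.8 and H3K27ac percentiles of 89.5, 85.8 and 77.0. Over PTGER1, PTGDR, PTGDR2, AVPR1A, AVPR1B and AVPR2 the median H3K4me3 percentile was 12.0 in GD15M_CM, 50.2 in GD15M_LM and 33.6 in CD15M_CM. H3K4me3 ranked higher in GD15M_LM than in GD15M_CM at 5 of 6 genes, where 48.3% of all genes did, and 3 passed 20 points, where 8.42% did. PTGER1, the PGE2 receptor EP1, had H3K4me3 percentiles of 7.37 in GD15M_CM, 55.3 in GD15M_LM and 62.5 in CD15M_CM, and H3K27ac percentiles of 62.4, 58.2 and 78.6. AVPR1A, the vasopressin receptor V1a, had H3K4me3 percentiles of 59.1, 64.7 and 70.9, and H3K27ac only in CD15M_CM, at 24.99. H3K27ac of the 6 genes did not follow the layer, with 3 higher in GD15M_CM, 1 in GD15M_LM and none past 20 points.

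The G proteins through which the receptors signal were strongly marked in every group. The 8 genes of alpha subunits had median percentiles of 93.1, 86.2 and 87.2 for H3K4me3 and of 97.9, 87.9 and 96.5 for H3K27ac, in GD15M_CM, GD15M_LM and CD15M_CM. Between the layers, H3K27ac ranked higher in GD15M_CM at 5 of 8, where 57.2% of all genes did, and passed 20 points at 3, where 21.5% did. GNA11, which encodes a Gq-family subunit, had the largest difference, with 99.4 in GD15M_CM, 17.6 in GD15M_LM and 93.9 in CD15M_CM. GNAI1, a Gi subunit, had 59.6, 79.0 and 97.5.

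Among 9 genes of receptor desensitization, RGS4 and RGS5, which speed the shut-off of G proteins, differed most. H3K27ac of RGS4 ranked at 89.9 in GD15M_CM, 14.7 in GD15M_LM and 80.0 in CD15M_CM. RGS5 had no H3K27ac peak in either pregnant layer and ranked at 73.4 in CD15M_CM. For the list, H3K27ac ranked higher in GD15M_CM than in GD15M_LM at 5 of 9 genes and lower at 3, where 57.2% and 42.8% of all genes did. It ranked higher in GD15M_CM than in CD15M_CM at 4 and lower at 5, where 49.2% and 50.8% did.

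Among 12 genes of ligand synthesis and breakdown, PTGS2, the inducible cyclooxygenase, ranked higher in GD15M_LM for both marks. Its H3K27ac percentile was 10.8 in GD15M_CM, 81.2 in GD15M_LM and 42.5 in CD15M_CM, and its H3K4me3 percentile 59.8, 79.7 and 63.9. PTGES2, a PGE2 synthase, had H3K27ac percentiles of 23.0, 85.2 and 11.9. In the list, H3K27ac ranked higher in GD15M_CM at 7 of 12 genes, where 57.2% of all genes did, and in GD15M_LM at 4, where 42.8% did. In each direction 2 genes passed 20 points, where 21.5% of all genes did towards GD15M_CM and 14.2% towards GD15M_LM. OXT, the oxytocin gene, had no H3K4me3 peak in any group, and its H3K27ac percentile was 0 in GD15M_CM, 16.3 in GD15M_LM and 45.0 in CD15M_CM.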

How the data were processed

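H3K4me3 (ab8580), H3K27ac (ab4729) and IgG libraries of 3 groups with 2 gilts each were assigned by their labels. The authors used BWA v0.7.17-r1188 for mapping to Sus scrofa 11.1, took out duplicates and reads of MAPQ below 25 with Picard v2.8.3 and SAMtools v1.9, pooled the replicates and called peaks over IgG with MACS2 v2.2.6. The deposited lists give, per peak, the fold enrichment (a ratio over IgG), the −log10 p and −log10 q values and the length in bp. Headers of both −log10 columns were unreadable; −log10 p was taken by position and −log10 q was not used. The number of unassigned columns was 0. Read depth is not in the lists and was not analysed here. It limits which weak peaks were called, so a gene without a peak is a gene below calling at that depth.

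Peaks overlapping a gene or its 3 kb flanks by at least 1 bp were ranked by fold enrichment within their list (Python 3.11.15, pandas 2.3.3, NumPy 2.4.6, SciPy 1.17.1, Matplotlib 3.10.9). A gene was called different at 20 percentile points. The pooled lists allow no test between groups. The ranking and overlap code was tested on simulated data. Alternatives were ranking by −log10 p, joining peaks less than 1 kb apart, a strict threshold (fold enrichment from 5 up, −log10 p from 10 up), the same number of top peaks per list, windows of 1 kb and 10 kb, 3 kb around either gene end, an overlap of 50% of the peak, and leaving out peaks within 1 kb of another gene's end.

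Members and gene lists were chosen with earlier results of these data known. Named were all 7 members, genes in their windows, per list and comparison at most 2 genes with the largest difference, and per member with peaks in all 6 lists the 2 genes most like it, of which 1 is not reported here. RefSeq gene models came without strand or sequence in the table used here.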

Additional observations from a re-analysis of the deposited data

How the results depend on the processing

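No paired analysis was possible because both replicates of a group were pooled before peaks were called, and for the same reason no gilt could be left out. Of 28 differences between groups at the 7 genes, 7 changed direction when ranked by −log10 p, 1 to 3 under each of the other settings named in the methods, and 4 of 14 with H3K27ac taken on the H3K4me3 peak alone, an alternative added after seeing the data. Of the 11 differences of at least 20 points, the only one to turn was H3K27ac of PTGIR between CD15M_CM and GD15M_CM. It went from 20.6 points towards GD15M_CM to 20.3 points towards CD15M_CM with a window of 10 kb. With H3K27ac on the H3K4me3 peak alone it was 15.1 points towards CD15M_CM. A difference that fell to 0 was not counted as a change of direction. With the strict threshold, H3K27ac fell to 0 in both lists for OXTR in both comparisons and for PTGIR against CD15M_CM. The same held for PTGER4 and TBXA2R between the layers. For H3K27ac against CD15M_CM, 3 genes were higher in CD15M_CM, 2 of them by at least 20 points, and 1 was at least 20 points higher in GD15M_CM. These counts became 5, 4 and 0 with −log10 p, 6, 4 and 0 with H3K27ac on the H3K4me3 peak, and 1, 1 and 0 with the strict threshold. The count past 20 points towards CD15M_CM was 4 with 3 kb around either gene end, and that towards GD15M_CM was 2 with the same number of top peaks and 0 with a window of 10 kb. Towards GD15M_LM, the 5 genes past 20 points for H3K27ac became 3 with −log10 p and 3 with the strict threshold. The single gene past 20 points for H3K4me3 towards CD15M_CM became 2 after joining peaks and 2 with the strict threshold. The strict threshold left H3K27ac at 0 genes in GD15M_CM, 4 in GD15M_LM and 1 in CD15M_CM, in 0, 4 and 1 regions, and H3K4me3 at 5, 7 and 6 genes, in 6 regions of GD15M_CM and 6 of CD15M_CM. By its construction it removes weak peaks. H3K27ac regions numbered 10 in GD15M_LM and 12 in CD15M_CM with 3 kb around either gene end, which leaves out the inside of long genes, and H3K4me3 regions of CD15M_CM numbered 16 with a window of 10 kb. The cause of the other shifts was not tested. Shares of all genes were counted only for the main setting and for H3K27ac on the H3K4me3 peak. H3K27ac of PTGER4 was 1.92 points higher in CD15M_CM, not 12.1 points higher in GD15M_CM, once a peak at the edge of its window was left out by a window of 1 kb.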

Other observations

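The genes whose 6 percentiles were most like those of a receptor gene were found by the mean absolute difference over the 6 lists, among all genes with a peak in every list. The measure describes these pooled lists and was not tested. Genes were picked by this likeness, so an order of the groups that they share with a receptor gene follows from the choice. PTGER3 was closest to HTR7, a Gs-coupled serotonin receptor, with a mean difference of 1.69 points, and to ADCY5, an adenylyl cyclase, with 2.45 points. Both genes are lowest in GD15M_CM for both marks, and HTR7 has H3K27ac percentiles of 69.2 in GD15M_CM, 99.2 in GD15M_LM and 86.8 in CD15M_CM. PTGER4 was closest to FOXF1, a mesenchymal transcription factor, with 3.41 points, and to SUV39H1, a histone methyltransferase, with 3.86 points. Ranked by fold enrichment, both of these share the high H3K27ac value in GD15M_LM alone. It was 60.8 for FOXF1 and 70.4 for SUV39H1, against 37.6 and 26.0 in GD15M_CM and 23.9 and 20.1 in CD15M_CM.

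TBXA2R was closest to FGF22, a fibroblast growth factor, with 2.26 points. PTGIR was closest to the lncRNA LOC102168180, with 3.87 points, and to CFAP58, with 5.93 points. PTGFR and PTGER2 were closest to the neighbours that share their peaks, LOC106510698 with 1.11 points and PTGDR with 1.82 points, followed by LSM3, an RNA-binding protein, with 1.54 points and MFSD4A with 2.12 points. OXTR was left out, since it has no H3K27ac peak in GD15M_CM.

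Other cell type markers gave no single direction. The 6 endothelial genes had median H3K27ac percentiles of 41.5 in GD15M_CM, 49.0 in GD15M_LM and 43.7 in CD15M_CM, with EMCN and KDR at 0 in all 3 groups, and the 6 genes of macrophages and B cells 35.9, 56.2 and 40.3, with CD163 and MS4A1 at 0. The 3 placed mesothelial genes had 70.4, 54.6 and 82.3.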
